A study of Mus musculus with 6 samples.

Results

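The ZBTB family comprises transcription factors that carry a BTB domain near the amino terminus and C2H2 zinc fingers near the carboxyl terminus. The BTB domain forms dimers and recruits corepressor complexes such as NCOR and SMRT, and the fingers read the DNA sequence. In lymphocytes several members set cell fate: Zbtb7b (ThPOK) commits thymocytes to the CD4 lineage, Zbtb16 (PLZF) directs innate-like T cells, and Zbtb46 marks classical dendritic cells. The members were all protein-coding mouse genes whose symbol is Zbtb followed by a number and optional letters, in the GENCODE M21 annotation, with the estimated counts of their transcripts summed per gene. The rule gave 41 genes of 55177 in the tables, and all 41 had transcripts there. The members were chosen by symbol alone and selected on no measured value, but the family itself was picked with results of these data known, so counts over it are descriptions. One match, Zbtb8os, is no ZBTB factor. It encodes archease, a cofactor of the tRNA ligase complex, and its coding sequence held 0 matches to the C2H2 finger pattern, whereas the other 40 held between 1 and 14 (median 4.0).

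The study compared CD4+ T cells of C57BL/6J mice depleted of Wtap (3 libraries, Wtap KO 1 to 3) with wild-type cells (3 libraries, WT 1 to 3). WTAP is a subunit of the complex that writes N6-methyladenosine (m6A) on RNA, where it brings the methyltransferase to its sites. The labels give all libraries the same handling: 1 µM 4-hydroxytamoxifen for 24 h, then anti-CD3 (1 µg/mL) and anti-CD28 (2.5 µg/mL) under Th1 conditions with IL-12 (10 ng/mL) and an antibody against IL-4 (10 µg/mL) for 40 to 48 h, then IL-2 (200 IU/mL), with harvest on day 4. The sources used here do not say whether wild-type cells carried a Cre transgene, which exons of Wtap were removed, or whether libraries were of separate animals. The p-values therefore measure the spread between these libraries, which may be technical in part. The libraries held 37121040, 40754960 and 44039467 estimated counts in Wtap KO, against 36641082, 32363139 and 38546728 in WT. Summed Wtap RNA was 114, 119.6 and 118.5 CPM (counts scaled to library size) in Wtap KO, against 114, 106 and 94.3 CPM in WT, a log2 fold change of 0.16 (SE 0.10, adjusted p = 0.371), so total Wtap RNA did not serve as a check of the labels. Markers of CD4+ T cells summed to between 2374 and 2491 TPM (a level scaled to transcript length and depth) in Wtap KO and between 2540 and 2574 TPM in WT. Of these 8 markers, 2 were lower in Wtap KO at an adjusted p under 0.05 in edgeR and 0 were higher. The 2 were Cd4 and Cd3g (log2 fold change -0.52 and -0.62). Over all genes tested, 3.49% were lower and 5.75% higher. Wtap KO 3 had 14.0 TPM of the Y-linked gene Kdm5d and 0.297 TPM of Xist, whereas the other 5 libraries had at most 0.625 TPM of Kdm5d and at least 172 TPM of Xist. Markers of B cells, macrophages, granulocytes, and erythroid cells and platelets each summed to at most 15.9 TPM in any library.

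In the annotation the 40 factors share an exon structure that sets them apart from most genes. A long exon, usually the one after the first, non-coding exon, holds the start of the protein, including the BTB domain in textbook descriptions, and often its fingers as well. The longest coding exon of the 40 measured between 301 nt (Zbtb17) and 3591 nt (Zbtb38), with a median of 1278.5 nt. It exceeded 1000 nt in 31 of 40, was the second exon in 26, and was the last exon of its transcript in 22. In 11 factors the whole coding sequence lay in 1 exon. Among tested genes, 76.3% of the 38 tested factors had a coding exon over 1000 nt, against 74.9% of 338 Zfp-named zinc finger genes and 11.8% of 12546 other protein-coding genes. The longest coding exon was also set against the longest coding sequence of its gene, which can be that of another transcript. Its length was a median of 85.3% of that sequence in tested factors, against 85.8% in Zfp-named and 26.2% in other protein-coding genes.

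The first site of the 5-base core GGACT, a sequence at which m6A is often written, is shown for each gene that rose and has one in its coding sequence, because WTAP belongs to the writer complex. Capitals mark the core, and 10 coding bases are given on either side, read 5′ to 3′ on the gene's strand (GENCODE M21 transcripts, GRCm38).
Zbtb42 site 1: gccgcctgctGGACTtcatgtacga
Zbtb39 site 1: cctacgtggtGGACTtcattacccc
Zbtb21 site 1: caggatggagGGACTgctgcattac
Zbtb1 site 1: tgagctgtgtGGACTcacaataact
Zbtb10 site 1: tggagccccaGGACTcggaggccgc
These windows lie at chr12:112679622-112679646 (plus strand, exon 2 of Zbtb42), chr10:127741764-127741788 (plus strand, exon 2 of Zbtb39), chr16:97953061-97953085 (minus strand, exon 3 of Zbtb21), chr12:76386510-76386534 (plus strand, exon 2 of Zbtb1) and chr3:9251332-9251356 (plus strand, exon 1 of Zbtb10). In each case that exon is the longest coding exon of the gene. The coding sequences held 2 such sites in Zbtb42, 3 in Zbtb39, 2 in Zbtb21, 1 in Zbtb1, 6 in Zbtb10 and 0 in Zbtb24. Tested factors had a median of 0.694 sites per kb of coding sequence, against 0.71 in Zfp-named and 1.06 in other protein-coding genes. Within the first 1200 coding bases, 26 of the 38 tested factors held GGACT (68.4%), against 66.1% of 295 Zfp-named and 75.4% of 7326 protein-coding genes that were tested and have a coding sequence that long. The opposite-strand letters AGTCC occurred in 73.7%, 65.1% and 68.1% of the same sequences. A match is a description of the sequence and does not show methylation, which these data did not measure.

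**Figure D1:**
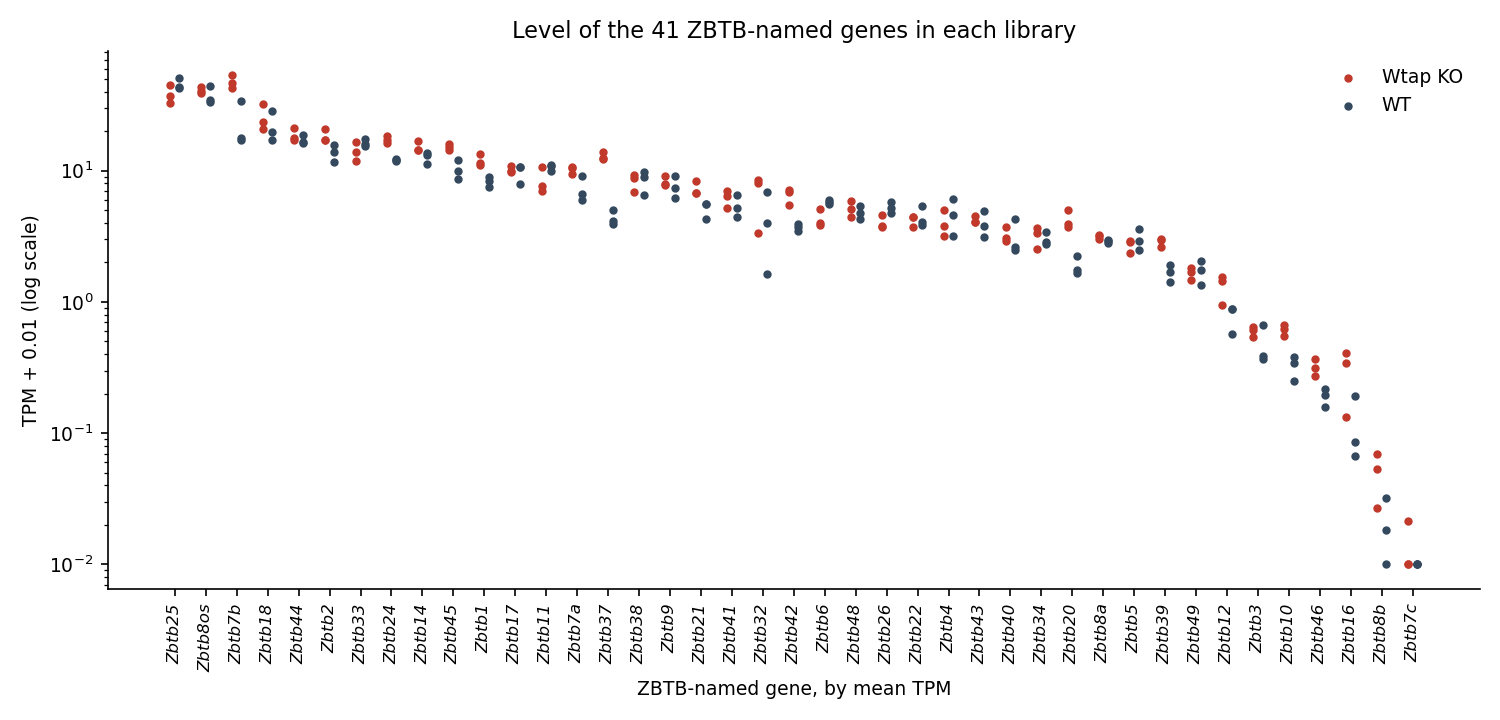
Level of the 41 ZBTB-named genes in each library, in TPM plus 0.01 on a log axis, in order of mean TPM; red points are the 3 Wtap KO libraries and dark points the 3 WT libraries. Zbtb25, Zbtb8os and Zbtb7b stand at the top, and Zbtb8b and Zbtb7c are near 0 in every library.

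Most of the family was detectable in these cells. Mean levels over the 6 libraries were above 10 TPM for 11 genes, between 1 and 10 TPM for 24 and under 1 TPM for 6. The 5 highest, on this per-length scale, were Zbtb25 (41.9 TPM), Zbtb8os (39.2 TPM), Zbtb7b (35.2 TPM), Zbtb18 (23.6 TPM) and Zbtb44 (17.9 TPM). Over the 6 libraries the ranges of neighbours in this order overlapped. Zbtb25 and Zbtb8os had 38.2 ± 6.00 and 40.9 ± 2.45 TPM in Wtap KO and 45.5 ± 4.25 and 37.6 ± 6.09 TPM in WT (SD, n = 3 each). Zbtb7b, which enforces the CD4 lineage, had 47.5 ± 5.37 TPM in Wtap KO and 22.9 ± 9.53 TPM in WT. Zbtb8b and Zbtb7c were too low to test, so 39 members, 38 of them factors, passed the filter on low counts.

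Of the 39 tested members, 6 rose in Wtap KO at an adjusted p under 0.05 in edgeR's quasi-likelihood test and 0 fell. Over all 17610 genes tested, 9.23% were called: 5.75% rose and 3.49% fell. At an unadjusted p under 0.05, 12 members were higher and 3 lower, against 14.0% and 12.2% of all genes tested. DESeq2 called 7 members higher and 1 lower, against 7.7% and 6.96% of all genes. The risers were Zbtb42, Zbtb24, Zbtb39, Zbtb21, Zbtb1 and Zbtb10, by 1.40-fold to 1.87-fold. The count of 6 did not hold without single libraries: it was 0 without WT 2, Wtap KO 1, Wtap KO 2 or Wtap KO 3, and 6 or 7 without WT 1 or WT 3. All genes called dropped as well in those 4 fits, to 565, 397, 361 and 704 from 1626 with every library. The median log2 fold change was 0.20 over the 38 tested factors, against 0.01 over 338 Zfp-named genes and 0.01 over the other protein-coding genes. Zfp-named genes, which share the long exon and the fingers, had 19 risers and 21 that fell (5.62% and 6.21%). The median over the 39 members lay between 0.11 and 0.24 when any 1 library was left out. It was 0.11 when counts were corrected for GC content, where the median of all genes was -0.06.

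**Figure D2:**
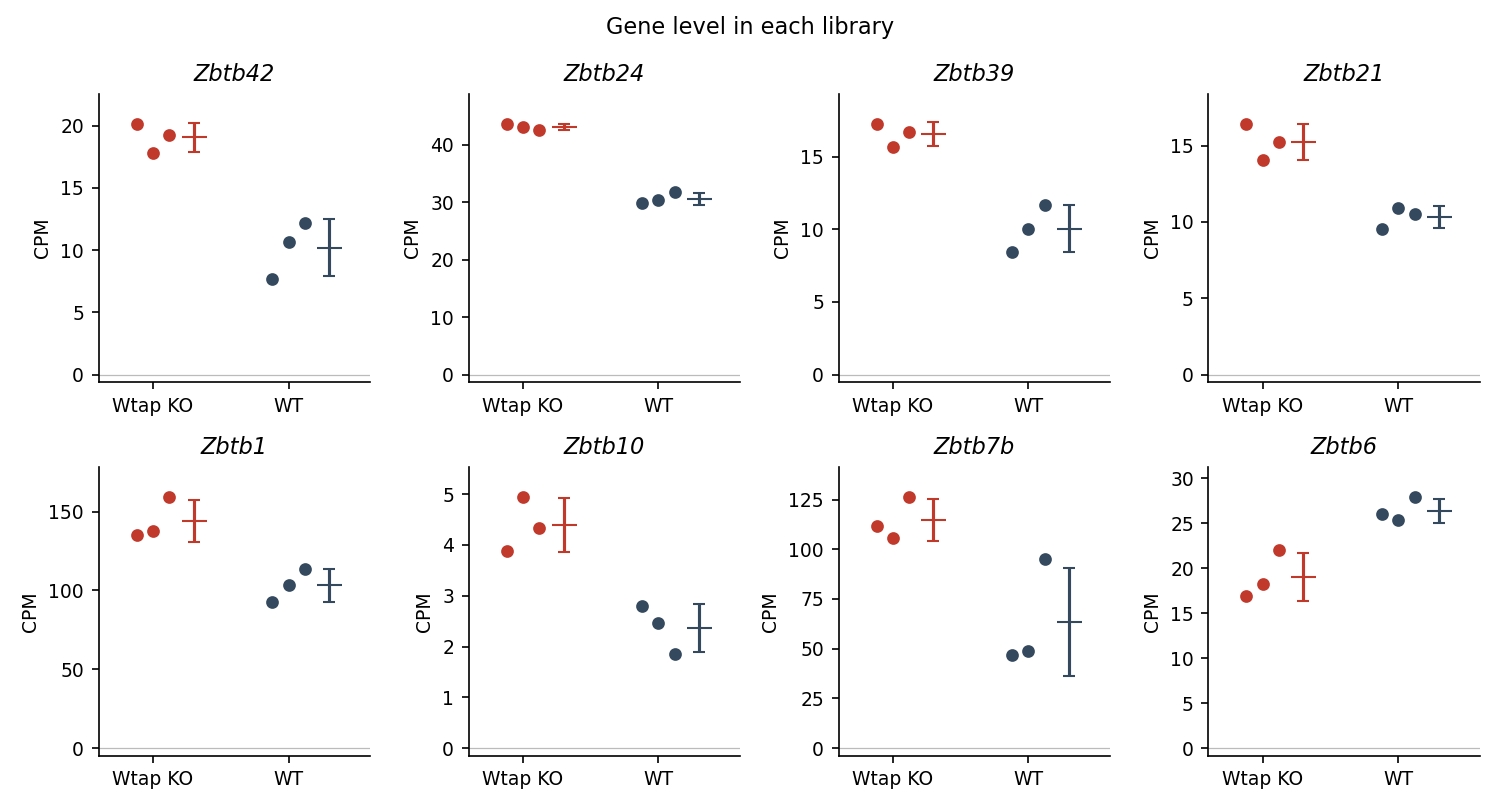
CPM of the 6 genes that rose and of Zbtb7b and Zbtb6 in each library, with the 3 Wtap KO libraries left of the 3 WT libraries; points are libraries, bars the mean and SD, and every axis includes 0. In all 8 panels the groups do not overlap; WT 3 of Zbtb7b, at 95.0 CPM, stands apart from the other WT libraries, at 46.7 and 48.9 CPM.

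Zbtb42, a close relative of Zbtb18 first described in muscle, rose most among the 6. Its full coding sequence lies in the second of 2 exons of Zbtb42-201 (chr12:112679376-112682747, plus strand, GRCm38). Its level was 20.2, 17.8 and 19.2 CPM in Wtap KO, against 7.71, 10.7 and 12.2 CPM in WT. Every Wtap KO library lay above every WT library. The log2 fold change was 0.90 (SE 0.18, adjusted p = 0.0193), and it stayed between 0.67 and 1.05 over 14 alternative fits, of which 10 passed. The summed counts include those of a form with a much shorter coding sequence, given below, which rose at the transcript level. On average that shorter form held most Zbtb42 counts in both groups. The rise of the sum can therefore not be read as a rise of the full coding form. Zbtb42-201 was not among the transcripts that rose, and the sum without the shorter form was not tested.

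Zbtb24, whose loss in humans causes an immunodeficiency with centromere instability, had the tightest values of the 6. It measured 43.7, 43.0 and 42.5 CPM in Wtap KO and 29.8, 30.3 and 31.8 CPM in WT, so the groups were separated by more than the range within either. The log2 fold change was 0.49 (SE 0.10, adjusted p = 0.0206), and 9 of 14 alternative fits passed, with adjusted p between 0.000374 and 0.113. Zbtb39, a factor of little known function whose whole coding sequence of 2136 nt lies in 1 exon, measured 17.3, 15.7 and 16.7 CPM in Wtap KO and 8.45, 10.0 and 11.7 CPM in WT. All Wtap KO values were higher, with a log2 fold change of 0.72 (SE 0.15, adjusted p = 0.0244), and 8 of 14 alternative fits passed.

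Zbtb21 binds Zbtb14 and acts as a repressor in human cells. Its level was 16.4, 14.1 and 15.2 CPM in Wtap KO, against 9.53, 10.9 and 10.6 CPM in WT, a log2 fold change of 0.56 (SE 0.14, adjusted p = 0.0364). The groups did not overlap, but the call was lost when counts were corrected for transcript length (log2 fold change 0.44, adjusted p = 0.152). It passed in 6 of 14 alternative fits, with adjusted p between 0.00328 and 0.156, and was also lost with limma on TPM, with a replicate block and in 4 fits without 1 library. Its partner Zbtb14 measured 55.5 ± 4.56 CPM in Wtap KO and 48.4 ± 5.33 CPM in WT (SD, n = 3 each) and did not pass (adjusted p = 0.349). The summed counts of Zbtb21 include those of a retained-intron form, given below, which were higher in every Wtap KO library than in any WT library. The rise of the sum can therefore not be read as a rise of the coding forms. No coding form of Zbtb21 was among the transcripts that rose, and the sum without the retained-intron form was not tested. Zbtb10, a repressor that competes for GC-rich promoter sites in human cells, was low, at 3.88, 4.94 and 4.34 CPM in Wtap KO and 2.79, 2.47 and 1.85 CPM in WT. The ranges were separate, with a log2 fold change of 0.89 (SE 0.22, adjusted p = 0.0382), and 6 of 14 alternative fits passed.

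Zbtb1 is required for lymphoid progenitors and for T cell development, and it had the highest count of the 6. It measured 135, 138 and 159 CPM in Wtap KO and 92.6, 103 and 114 CPM in WT, a log2 fold change of 0.48 (SE 0.12, adjusted p = 0.0366). The groups did not overlap, and 7 of 14 alternative fits passed. Its neighbour Zbtb25, which is transcribed away from it on the opposite strand, measured 41.2, 46.5 and 54.2 CPM in Wtap KO, against 58.6, 55.3 and 58.9 CPM in WT. The Zbtb25 groups did not overlap either, with Wtap KO lower, but its log2 fold change of -0.28 (SE 0.12) did not pass (adjusted p = 0.181), and it did not pass in any of 14 alternative fits. The difference between these neighbours was not itself tested. Of the 6 genes, 2 share exonic bases with a protein-coding neighbour: Zbtb21 shares 86 with C2cd2 on the same strand and Zbtb39 shares 74 with Gpr182 on the opposite strand.

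The promoters of this pair are shown because the genes start 960 bases apart and their log2 fold changes had opposite signs. Sequences are RefSeq's (GRCm38.p6), each from 250 bases before to 50 after the start, 5′ to 3′ on the gene's strand. Capitals mark GGGCGG or its reverse complement CCGCCC, the core of a GC box.
Zbtb1: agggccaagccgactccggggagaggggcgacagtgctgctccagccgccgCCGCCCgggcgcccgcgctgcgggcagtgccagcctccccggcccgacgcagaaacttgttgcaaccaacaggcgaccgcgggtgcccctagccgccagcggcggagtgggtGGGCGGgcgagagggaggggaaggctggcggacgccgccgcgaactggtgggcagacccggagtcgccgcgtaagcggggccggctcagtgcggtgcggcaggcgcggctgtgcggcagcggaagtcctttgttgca
Zbtb25: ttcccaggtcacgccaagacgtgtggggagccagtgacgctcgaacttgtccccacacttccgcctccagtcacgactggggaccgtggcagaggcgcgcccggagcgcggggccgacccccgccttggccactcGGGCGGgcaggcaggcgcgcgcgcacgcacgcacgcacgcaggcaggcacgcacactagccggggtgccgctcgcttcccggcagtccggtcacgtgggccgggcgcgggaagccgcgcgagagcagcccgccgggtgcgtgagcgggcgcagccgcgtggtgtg
The Zbtb1 window is chr12:76370270-76370569 (plus strand) and the Zbtb25 window chr12:76369511-76369810 (minus strand), so they do not overlap. The GC box core occurred 2 times in the Zbtb1 window and 1 time in the Zbtb25 window. RefSeq gives Zbtb25 another start, 1056 bases from that of Zbtb1, and its window (chr12:76369415-76369714), which overlaps the one shown, held 3. RefSeq promoters matched 36 of 41 members, some with several starts (49 promoters). Searched on both strands, GGGCGG occurred in 67.3% of these, against 35.7% of 32851 mouse promoters of the same length. The Ets core CCGGAAG occurred in 24.5% and 8.86%, and the TATA core TATAAA in 12.2% and 13.6%. These motifs do not overlap one another in the 2 sequences shown, where only the GC box core was found.

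**Figure D3:**
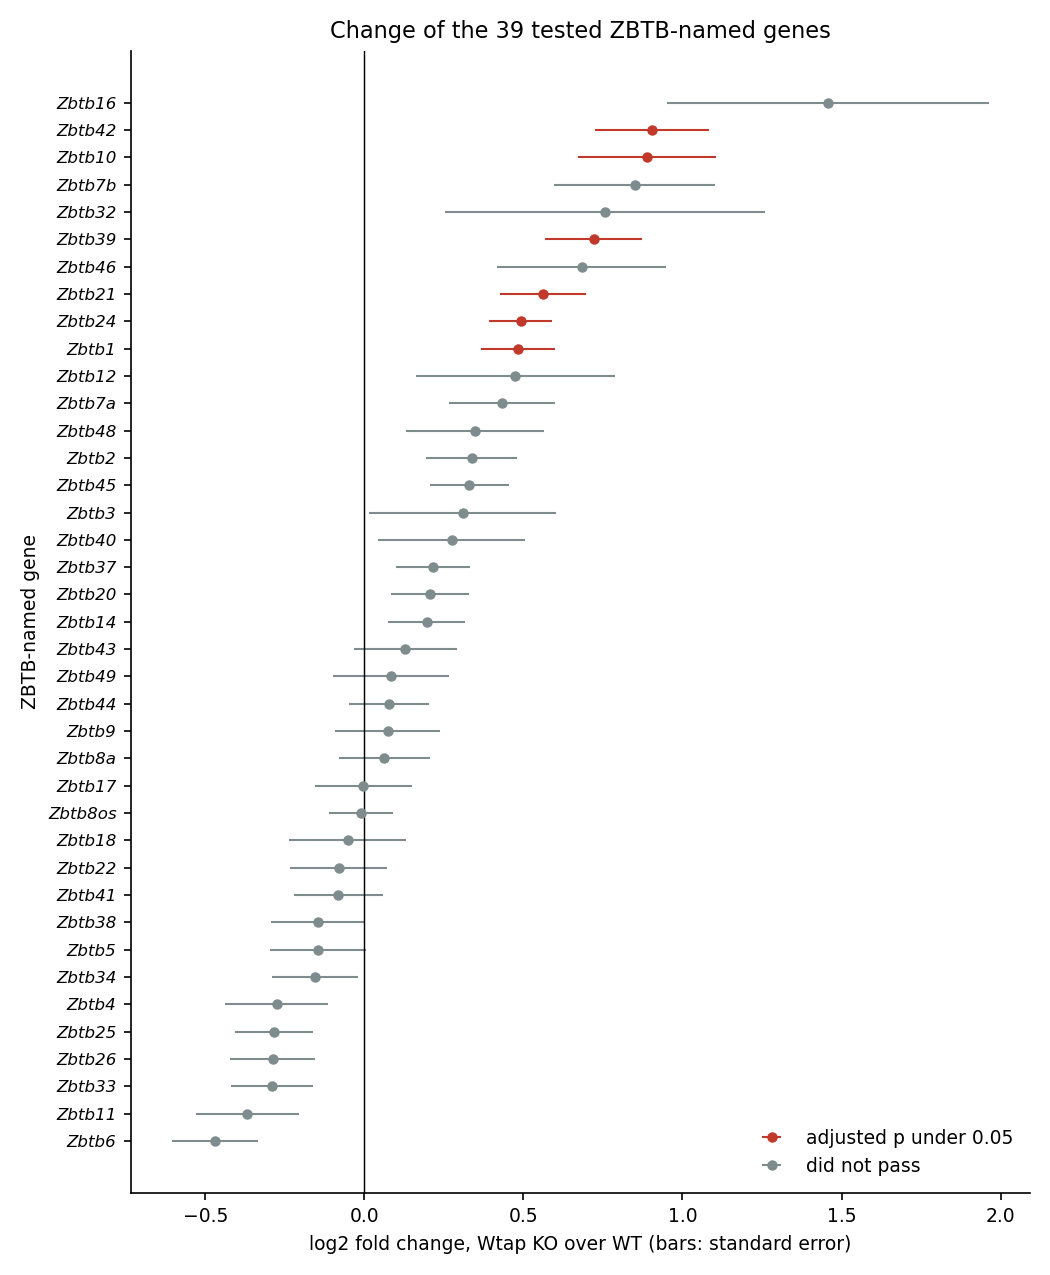
Log2 fold change (Wtap KO over WT) of the 39 tested ZBTB-named genes, with standard errors; red marks the 6 with an adjusted p under 0.05. The 39 values run from -0.47 (Zbtb6) to 1.46 (Zbtb16), and 25 of them are above 0.

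Among the factors with known roles in lymphocytes, none beyond Zbtb24 and Zbtb1 passed. Zbtb7b measured 112, 106 and 126 CPM in Wtap KO, against 46.7, 48.9 and 95.0 CPM in WT. All 3 Wtap KO values were above all WT values, but WT 3 lay close to them, and the log2 fold change of 0.85 (SE 0.25) did not pass (adjusted p = 0.0716). Without WT 3 it was 1.26 with an adjusted p of 0.00203, and over the 14 alternatives the adjusted p ran from 0.00203 to 0.308, with 5 passing. Zbtb7a (LRF), which works beside Zbtb7b in CD4 commitment, measured 60.1, 54.7 and 58.8 CPM in Wtap KO and 34.9, 38.8 and 54.9 CPM in WT. WT 3 was again the highest of its group and overlapped Wtap KO, and the log2 fold change of 0.43 (SE 0.17) did not pass (adjusted p = 0.14). Zbtb17 (Miz-1), the Myc partner needed for IL-7 signalling in early lymphocytes, measured 13.5 ± 1.04 CPM in Wtap KO and 13.5 ± 1.94 CPM in WT (SD, n = 3 each), a log2 fold change of -0.0031 (SE 0.15, adjusted p = 0.993).

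Zbtb32 (ROG), a repressor of cytokine genes that is induced on T cell activation, did not pass. It measured 10.5, 10.5 and 4.43 CPM in Wtap KO and 8.15, 4.88 and 2.02 CPM in WT, with overlap (log2 fold change 0.76, SE 0.50, adjusted p = 0.391). Library 3 was the lowest in each group. Zbtb16 had the largest fitted change but low counts, at 1.86, 1.65 and 0.597 CPM in Wtap KO and 0.387, 0.813 and 0.3 CPM in WT (log2 fold change 1.46, SE 0.51, adjusted p = 0.109). Wtap KO 3 lay within the WT range. Of 6 markers of NK and NKT cells, which can carry Zbtb16, 0 passed, 4 stayed under 1 TPM in every library, and the natural killer marker Ncr1 reached at most 0.0714 TPM. The marker sum was 61.8 to 75.3 TPM in Wtap KO and 61.6 to 134 TPM in WT, nearly all of it Klrd1. Klre1 had 1.28, 2.41 and 1.67 TPM in Wtap KO and 0.42, 1.20 and 0.50 TPM in WT. Its groups did not overlap, and it did not pass (log2 fold change 1.30, adjusted p = 0.0732). Of the 4 markers tested, 2 had a positive log2 fold change. The part of such cells in the Zbtb16 values was not tested.

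Zbtb46 was likewise low, at 1.02, 1.47 and 1.15 CPM in Wtap KO and 0.773, 0.844 and 0.654 CPM in WT. The groups did not overlap, but the log2 fold change of 0.68 (SE 0.27) did not pass (adjusted p = 0.143). The 10 dendritic cell markers summed to 44.8, 60.04 and 48.3 TPM in Wtap KO and 37.5, 22.1 and 11.6 TPM in WT. Of these, 3 rose (Batf3, H2-Aa and Cd74), and 6 were under 1 TPM in every library, among them Cd209a, which was at 0. The tenth, H2-Ab1, had 7.38, 8.35 and 7.09 TPM in Wtap KO and 30.3, 7.22 and 6.13 TPM in WT (log2 fold change -0.92, adjusted p = 0.349), so it made up most of the sum of WT 1. The part of dendritic cells in the Zbtb46 values was not tested, and in bulk RNA fewer cells of a type and less RNA per cell cannot be told apart. Zbtb18, a repressor best known from neurons, measured 22.9 ± 3.26 CPM in Wtap KO and 23.7 ± 5.51 CPM in WT, and Zbtb44 95.9 ± 12.8 CPM in Wtap KO and 90.9 ± 8.32 CPM in WT (SD, n = 3 each). Neither passed (adjusted p = 0.897 and 0.754). Zbtb8os measured 36.3 ± 1.40 CPM in Wtap KO and 36.5 ± 1.02 CPM in WT (SD, n = 3 each; adjusted p = 0.97).

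No member fell, and the lowest fold change belonged to Zbtb6, a factor of little known function. It measured 16.9, 18.2 and 22.1 CPM in Wtap KO, against 25.99, 25.4 and 27.9 CPM in WT. The groups did not overlap, and the log2 fold change was -0.47 (SE 0.13, adjusted p = 0.0636). DESeq2 passed it (adjusted p = 0.0166), as did the fit without WT 1 (adjusted p = 0.0497), and the adjusted p over all alternatives ran from 0.0166 to 0.233. Its neighbour Zbtb26, which shares 449 exonic bases with it on the same strand, measured 16.9 ± 1.77 CPM in Wtap KO and 20.7 ± 1.56 CPM in WT (SD, n = 3 each; adjusted p = 0.209), and counts of the shared bases were split between the pair by estimation. The X-linked Zbtb33 (Kaiso, a reader of methylated DNA) measured 41.03, 47.2 and 55.7 CPM in Wtap KO and 61.7, 56.4 and 57.8 CPM in WT, without overlap and without passing (adjusted p = 0.193). Its highest Wtap KO value belonged to Wtap KO 3, the library with Kdm5d RNA. In all, CPM of the groups did not overlap for 10 members that were higher and 4 that were lower (25.6% and 10.3% of 39), where over all genes tested these shares were 17.2% and 15.5% (32.7% in either direction).

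The other 17 tested members did not pass either, with adjusted p between 0.132 and 0.831 and log2 fold changes between -0.37 and 0.47. Among them were readers of methylated DNA related to Kaiso. Zbtb4 measured 20.7 ± 1.95 CPM in Wtap KO and 25.1 ± 4.96 CPM in WT, and Zbtb38 measured 45.7 ± 6.57 CPM in Wtap KO and 50.5 ± 6.81 CPM in WT (SD, n = 3 each). Zbtb2, which binds unmethylated CpG sites, measured 51.9, 54.2 and 62.4 CPM in Wtap KO and 37.1, 44.2 and 52.0 CPM in WT. Wtap KO 1 and WT 3 were nearly equal, and the adjusted p was 0.176. Zbtb48 (TZAP), which binds telomere repeats in human cells, measured 6.53 ± 0.113 CPM in Wtap KO and 5.13 ± 1.43 CPM in WT (SD, n = 3 each), with overlap (adjusted p = 0.357).

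All Wtap KO libraries lay above WT for Zbtb45, at 28.2, 25.98 and 24.8 CPM in Wtap KO and 18.8, 21.3 and 22.7 CPM in WT (log2 fold change 0.33, SE 0.12, adjusted p = 0.132). Zbtb11, a factor with 12 finger patterns, measured 32.6, 31.8 and 46.3 CPM in Wtap KO and 43.1, 48.1 and 51.6 CPM in WT. Wtap KO 3 lay within the WT range, and the log2 fold change of -0.37 (SE 0.16) did not pass (adjusted p = 0.189). Zbtb41, which had the most finger patterns (14), measured 29.0 ± 2.39 CPM in Wtap KO and 30.7 ± 4.82 CPM in WT (SD, n = 3 each, adjusted p = 0.772). Among factors at or under 1.04 TPM on average, Zbtb12 and Zbtb3 measured at most 2.12 CPM in any library and overlapped (adjusted p = 0.383 and 0.559). Of the 2 untested genes, Zbtb8b reached 0.147 CPM in 1 Wtap KO library and Zbtb7c was at 0 in 5 of 6 libraries.

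The 201 member transcripts in the tables gave 110 that could be tested. Of these, 3 rose at an adjusted p under 0.05 and 0 fell, against 0.501% and 0.219% of all 46935 transcripts tested. At an unadjusted p under 0.05, 16 were higher and 10 lower, against 7.85% and 6.49% of all transcripts. DESeq2 called 10 higher and 4 lower, against 3.49% and 3.17%. The 3 were Zbtb37-201, Zbtb42-203 and Zbtb24-201. None passed when Wtap KO 1, 2 or 3 or WT 2 was left out, and Zbtb37-201 alone passed without WT 1 or WT 3. Over all transcripts tested, 338 were called with every library. Without Wtap KO 1, 2 or 3 or WT 2, 0 were called in all, and without WT 1 or WT 3, 17 and 16. The loss of calls was thus general and not particular to the members. With other size factors or no filter on low counts, Zbtb24-201 lost its call (adjusted p = 0.0518 and 0.0733) and the other 2 kept theirs. A second test asked whether a transcript's share of its gene differed. Of 101 member transcripts, 2 did, both of Zbtb37, against 0.514% of 39137 transcripts.

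Zbtb37, a factor of little known function on chromosome 1, showed the clearest difference in transcripts. Annotated forms Zbtb37-201 and Zbtb37-203 encode the same 1512 nt and differ most in where the last exon ends. In Zbtb37-203 that exon spans chr1:161002922-161020406 (minus strand, 17485 nt), and in Zbtb37-201 it spans chr1:161019259-161020406 (1148 nt), wholly within the former. The forms also differ at the start of exon 3, which is 957 nt long in Zbtb37-201 and 960 nt in Zbtb37-203. Their first exons measure 71 and 72 nt. Which of these differences the estimated counts rest on was not tested. Zbtb37-201 was listed at 309, 280 and 361 estimated counts in Wtap KO and at 0, 0 and 0 in WT. Its level was at least 268-fold higher in Wtap KO, taking a floor of 3 counts over the WT group (adjusted p = 0.021). It took 12.9%, 11.7% and 14.8% of Zbtb37 counts in Wtap KO, whereas 0 of 5259 counts in WT allows a share of up to 0.057%, counting error only. Zbtb37-203 took 78.1%, 74.0% and 77.0% in Wtap KO and 95.0%, 96.4% and 97.9% in WT. The level of Zbtb37-203 itself did not pass (log2 fold change -0.11, adjusted p = 0.755). The share test gave an adjusted p of 0.000156 for Zbtb37-201 and 0.0279 for Zbtb37-203 (limma on log2 odds). Zbtb37-201 passed it in every one of the 9 alternatives (adjusted p up to 0.0463), whereas Zbtb37-203 lost its call without WT 2 or any 1 Wtap KO library (adjusted p 0.107 to 0.155) and with a replicate block (adjusted p = 0.239).

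The last 30 bases of the paired forms are shown, with the polyadenylation signal AATAAA in capitals where a search found it (GENCODE M21, GRCm38, 5′ to 3′ on the gene's strand).
Zbtb37-201: agcaggcagaagcacctgaagcacttgggc
Zbtb37-203: gtttgagaAATAAAacgtttaatactctta
Zbtb24-201: ctcattccaAATAAAccaaattttgtcaga
Zbtb24-205: atattgtttAATAAAacttaattaagggaa
They lie at chr1:161019259-161019288 and chr1:161002922-161002951 (minus strand) for Zbtb37 and at chr10:41465545-41465574 and chr10:41453439-41453468 (plus strand) for Zbtb24. The annotated end of Zbtb37-201 held no AATAAA in this window, which says only that these letters are absent there. Among 58729 protein-coding transcripts in the tables, 35.5% held it in their last 30 bases.

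Zbtb37-203 is 18814 nt long and Zbtb37-201 2473 nt, and the level of Zbtb37 as a gene differed between scales with and without length. In CPM it was 62.7, 58.8 and 53.9 in Wtap KO and 46.2, 56.1 and 48.9 in WT, with overlap and no call (log2 fold change 0.22, adjusted p = 0.28). In summed TPM it was 13.9, 12.4 and 12.2 in Wtap KO and 3.90, 4.16 and 5.04 in WT. With transcript length as an offset the log2 fold change was 1.498 (adjusted p = 0.00152). Zbtb20, a regulator of plasma cells, also differed between scales. It had 37.7, 35.5 and 39.9 CPM in Wtap KO and 28.2, 35.4 and 34.4 CPM in WT (adjusted p = 0.334), but 5.03, 3.88 and 3.69 TPM in Wtap KO and 1.67, 1.74 and 2.24 TPM in WT. Its 26901-nt form, which ends in an exon of 24280 nt, took 86.5% ± 0.660 of its counts in Wtap KO and 95.8% ± 2.51 in WT (SD, n = 3 each) and did not pass the share test (adjusted p = 0.354). With the length offset Zbtb20 passed (log2 fold change 1.09, adjusted p = 0.00985). The distal last exon of Zbtb37-203 overlaps Serpinc1 on the opposite strand by 2942 bases (chr1:161002922-161005863), and Zbtb37-201 overlaps it by 0. Serpinc1 had 2.44, 2.29 and 3.41 CPM in Wtap KO and 1.41, 1.41 and 1.61 CPM in WT.

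**Figure D4:**
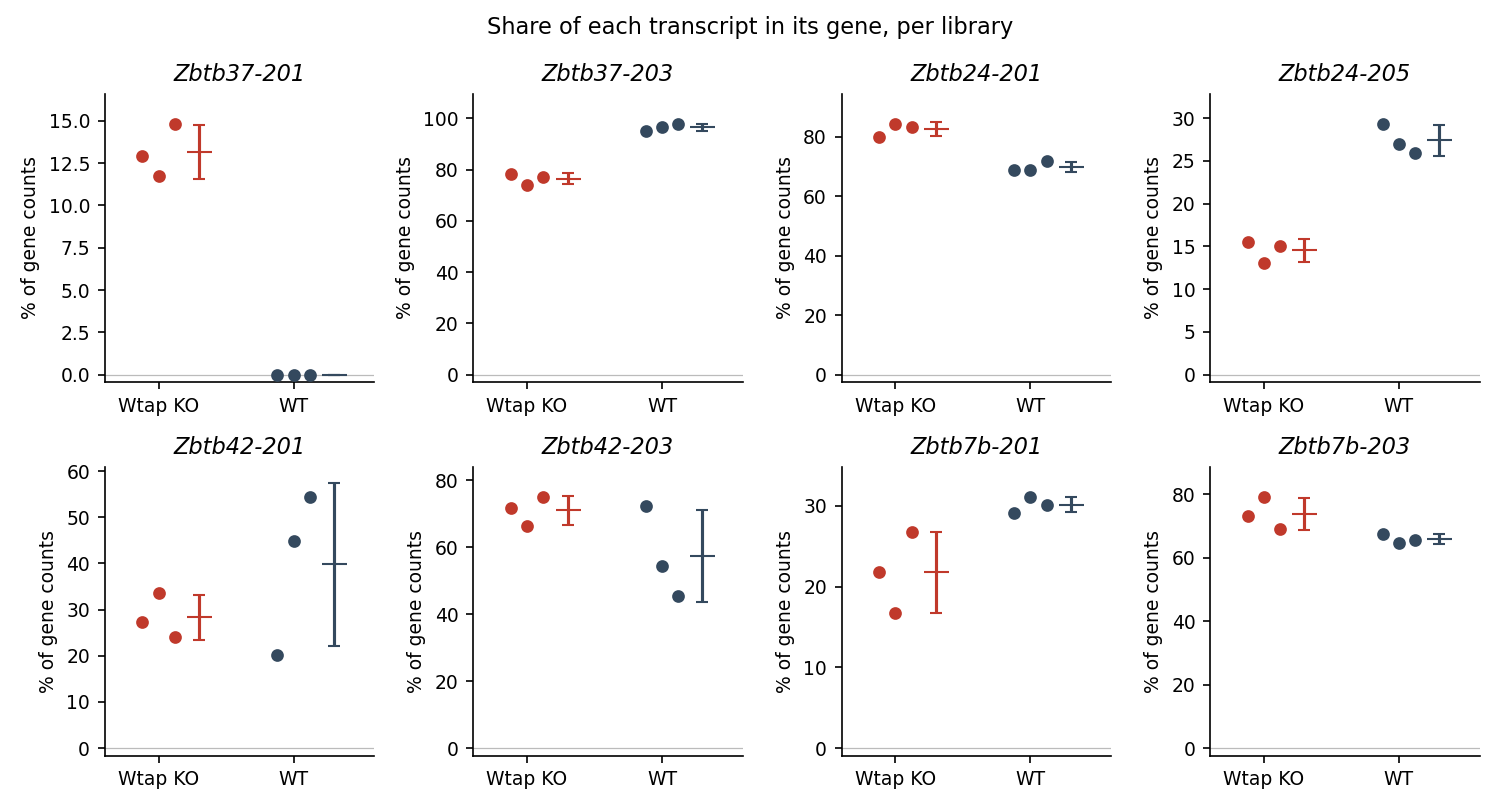
Share of each transcript in the estimated counts of its gene (percent), for Zbtb37, Zbtb24, Zbtb42 and Zbtb7b, with the 3 Wtap KO libraries left of the 3 WT libraries; points are libraries and bars the mean and SD. Zbtb37-201 is at 11.7% to 14.8% in Wtap KO and at 0 in WT, and Zbtb24-205 at 13.0% to 15.5% in Wtap KO and 25.9% to 29.4% in WT.

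Zbtb24 also had a short form. Zbtb24-201 has 7 exons and 2130 coding nt, whereas Zbtb24-205 ends in an extended second exon (chr10:41451089-41453468) with 1062 coding nt. Zbtb24-201 had 1329, 1476 and 1597 estimated counts in Wtap KO and 742, 668 and 837 in WT, a log2 fold change of 0.74 (adjusted p = 0.0488). Zbtb24-205 had 259, 228 and 289 in Wtap KO and 317, 261 and 302 in WT, with overlap (adjusted p = 0.304). Its share was 15.5%, 13.0% and 15.1% in Wtap KO and 29.4%, 27.0% and 25.9% in WT. These shares did not overlap, but the adjusted p of 0.089 missed the threshold over all transcripts.

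Zbtb42-203, which splices out part of the long exon, has an annotated coding sequence of 180 nt, against 1260 nt in Zbtb42-201. Zbtb42-203 had 551, 482 and 651 estimated counts in Wtap KO and 201, 186 and 202 in WT (log2 fold change 1.28, adjusted p = 0.0334). Its share of Zbtb42 was 71.0% ± 4.28 in Wtap KO and 57.3% ± 13.7 in WT (SD, n = 3 each), with overlap and no call (adjusted p = 0.594). Zbtb7b has 2 alternative first exons, at chr3:89393035-89393362 in Zbtb7b-201 and at chr3:89387063-89387189 in Zbtb7b-203 (minus strand), before the same 1632 coding nt. Zbtb7b-203 took 73.1%, 79.1% and 69.1% in Wtap KO and 67.5%, 64.5% and 65.7% in WT, with no overlap and no call (adjusted p = 0.488). Zbtb7b-201 took the counterpart, 21.7% ± 4.99 in Wtap KO and 30.1% ± 0.953 in WT (SD, n = 3 each). The main retained-intron form of Zbtb21 had 312, 224 and 263 estimated counts in Wtap KO and 74, 80 and 48 in WT, with no overlap and no call (adjusted p = 0.0739).

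**Figure D5:**
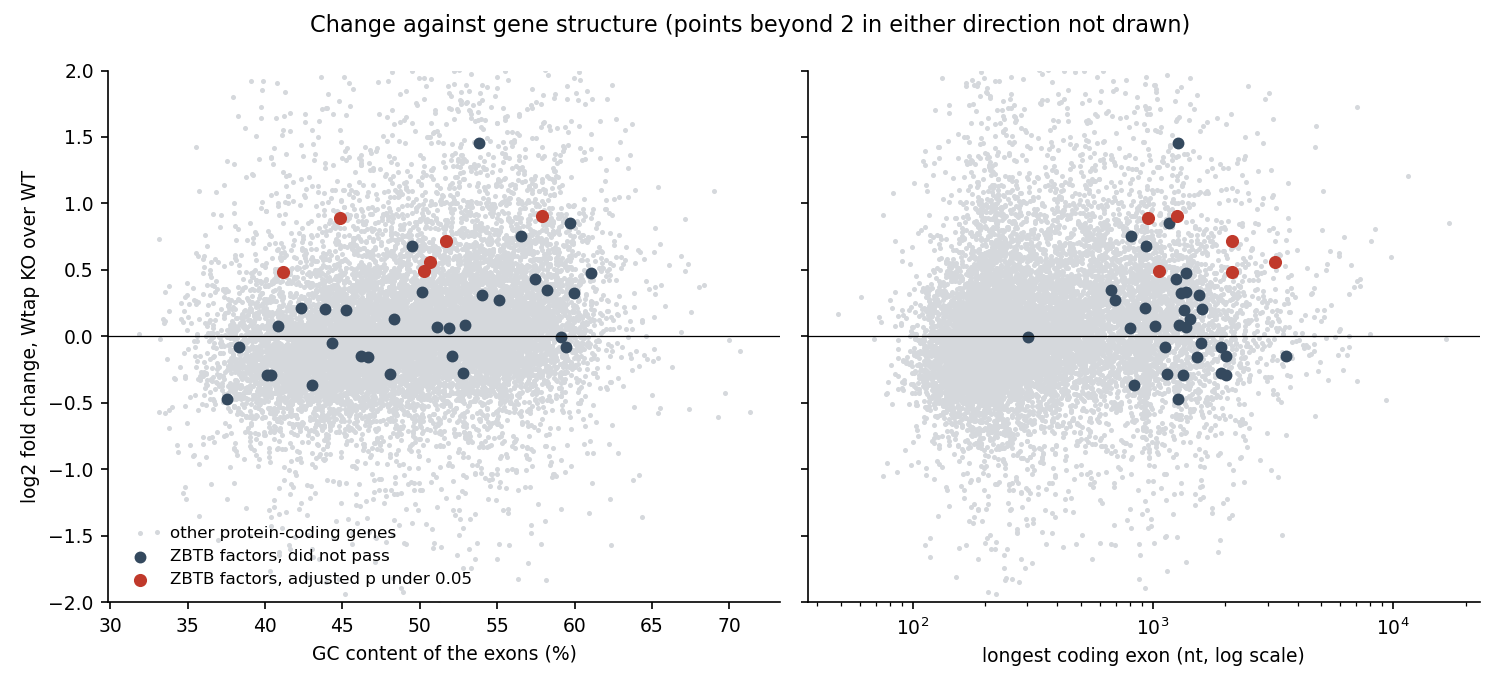
Log2 fold change (Wtap KO over WT) against GC content of the exons (left, percent) and longest coding exon (right, nt, log axis); grey points are protein-coding genes, dark points the ZBTB factors that did not pass and red points the 6 that rose. Factors with higher GC content tend to have higher fold changes (Spearman rho 0.46, n = 38), with no such tendency for exon length (rho -0.17). GC content is weighted by the estimated counts of each transcript.

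Change was set against structure within the family as a description, since these genes share libraries. GC content is the mean over a gene's transcripts, weighted by their estimated counts in these libraries. It is therefore not a trait of the annotation alone. Over the 38 tested factors the log2 fold change correlated with GC content of the exons with a Spearman rho of 0.46 (Pearson r 0.44), against 0.25 (r 0.19) over 12923 protein-coding genes and 0.31 (r 0.28) over 338 Zfp-named genes. The 21 factors above 50% GC had a median log2 fold change of 0.34 with 4 risers, and the 17 others a median of -0.05 with 2. When a GC curve was fitted for each library, rho over the factors was 0.21 and the same 6 genes rose. For the longest coding exon, rho was -0.17 (r -0.11) over the factors and 0.20 (r 0.10) over 12877 protein-coding genes. Factors with a coding exon over 2000 nt had 3 risers of 6 (median 0.17), those over 1000 and up to 2000 nt 2 of 23 (median 0.13), and those up to 1000 nt 1 of 9 (median 0.28). With GGACT sites per kb, rho was 0.19 over the factors and 0.10 over 12877 genes.

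Partners and related genes mostly did not pass. The lists were chosen with earlier results of these data known, so counts over them are descriptions. Over all genes tested, 5.75% rose and 3.49% fell. Of 8 genes of the same architecture under other symbols, such as Bcl6 and Patz1, 7 were tested and 0 were called. Of 4 BTB genes without C2H2 fingers, Nacc1, a BTB corepressor, rose (85.5 CPM in Wtap KO and 63.3 CPM in WT, log2 fold change 0.43, adjusted p = 0.0422). Of 20 partners and corepressors, Rcor1 (CoREST) fell (79.6 CPM in Wtap KO and 114 CPM in WT, log2 fold change -0.52, adjusted p = 0.0255) and 19 did not pass; the median over all 20 was -0.17. Of 14 CD4 lineage genes regulated by or with Zbtb7b and Zbtb7a, 3 fell and 1 rose. Cd4, the coreceptor gene, averaged 378 CPM in Wtap KO and 542 CPM in WT (adjusted p = 0.0244), and Gata3, which acts upstream of Zbtb7b in the thymus, 56.0 CPM in Wtap KO and 97.0 CPM in WT (adjusted p = 0.0244). Tox, a factor of CD4 lineage development, averaged 14.9 CPM in Wtap KO and 24.7 CPM in WT (adjusted p = 0.0429). Cd8b1, a coreceptor gene silenced in CD4+ cells, rose to 16.6 CPM in Wtap KO, against 10.1 CPM in WT (adjusted p = 0.0268). The pair of CD8 markers summed to 11.4 to 13.9 TPM in Wtap KO and 7.18 to 7.79 TPM in WT, and the part of CD8+ cells in this value was not tested.

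Of 12 genes regulated by or with Bcl6, Zbtb32, Zbtb16 and Zbtb20, 4 rose and 1 fell, against 5.75% and 3.49% of all genes tested. This list too was chosen with earlier results of these data known. Il21, a cytokine of helper T cells, averaged 13.4 CPM in Wtap KO and 0.37 CPM in WT (adjusted p = 0.00117), and Bhlhe40, a factor needed for cytokine production, 169 CPM in Wtap KO and 55.7 CPM in WT (adjusted p = 0.00177). Cxcr5, a homing receptor, and Id2, an inhibitor of E proteins, rose as well (adjusted p = 0.0173 and 0.0184), and Id3, its relative, fell by 1.00 on the log2 scale (adjusted p = 0.0351). Bcl6, Zbtb32, Zbtb16 and Zbtb20 themselves did not pass in edgeR on summed counts, although Zbtb20 passed with the length offset and with limma on TPM. Of 5 tested genes regulated by or with Zbtb17, Cdkn1a, a cell-cycle inhibitor that Zbtb17 can activate, rose to 37.5 CPM in Wtap KO, against 18.6 CPM in WT (adjusted p = 0.0208), and 4 did not pass.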

How the data were processed

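The 6 libraries (SENSE mRNA-Seq kit, read pairs of 50 bases, per the labels' protocols) were quantified by the authors with kallisto 0.44.0, per the submitters' processing notes, which also name DESeq2 and the build GRCm38. The deposited tables give estimated counts and TPM per transcript. The sources used here do not name the authors' annotation, strand setting or bias correction. Identifiers matched GENCODE M21 for 99.15% of 142647 transcripts, which held at least 99.71% of estimated counts. Without a known strand setting, reads of overlapping genes on opposite strands cannot be told apart, and reads shared by transcripts were divided by estimation.

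Estimated counts were summed per gene, rounded and tested with edgeR 4.0.16 (TMM, filterByExpr, robust quasi-likelihood, R 4.3.3), all 6 libraries, Benjamini-Hochberg adjustment over all genes, threshold 0.05. Standard errors are the fold change over the root of F. CPM uses TMM library sizes. Transcripts had the same test. Transcript shares used limma 3.58.1 on log2 odds with a pseudocount of 0.5. DESeq2 1.42.0, other scalings, no filter, limma on log2(TPM + 1) and log2(TPM + 0.1), length and GC offsets, a replicate block and leaving out each library were alternatives. Fold changes are Wtap KO over WT. Members, lists and named genes were chosen with earlier results of these data known. Named genes were members called, 11 with lymphocyte roles, the 5 highest in TPM, and the largest and smallest change among those not called; transcripts were those with at least 10% of a named gene's counts or called. Other members given with values were chosen after their values were seen.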

Additional observations from a re-analysis of the deposited data

How the results depend on the processing

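The count of risers (6) was 6 or 7 under other size factors, no filter, DESeq2, and length or GC offsets, and 5 with limma on TPM. Membership changed: limma on TPM called Zbtb20, Zbtb24, Zbtb37, Zbtb42 and Zbtb7b, so Zbtb39, Zbtb21, Zbtb1 and Zbtb10 were lost, and the length offset lost Zbtb21 and added Zbtb20 and Zbtb37. The family median was 0.11 with the GC offset and 0.13 with limma on log2(TPM + 1). With DESeq2, 1 member was lower and all calls were 2581, against 1626; member transcripts were 10 higher and 4 lower, against 3 and 0. With other size factors or no filter 2 were higher. Without 1 library each, the ranges were 0 to 7 members higher, 0 to 1 lower, 361 to 2282 genes called in all, 0 to 1 transcripts higher, 1 to 4 transcripts with a changed share and a median log2 fold change of 0.11 to 0.24. Of called genes, 62.2% were higher, against 42.3% with the GC offset and 73.8% with limma on log2(TPM + 1); the cause was not tested. Deviations of same-numbered libraries from their group means had correlations of -0.10, 0.05 and 0.14, and those of other pairs ran from -0.20 to 0.15. With 3 libraries a group these values cannot decide whether the libraries were paired. With the replicate block, 3 members (Zbtb7b, Zbtb42 and Zbtb39) and 1061 genes were called, 0 member transcripts were higher and 1 had a changed share. Over all transcripts, the block left 0 called by level and 3 by share. Values near 0 changed sign: Zbtb17 to 0.0065 with the length offset, 0.0766 and 0.0693 with limma on log2(TPM + 0.1) and log2(TPM + 1), and 0.0034 with the block, while the GC offset gave -0.24 (adjusted p = 0.193); Zbtb18 likewise to 0.17, 0.24 and 0.23; Zbtb8os to 0.0704, 0.13 and 0.13. Without 1 library each, Zbtb17 ran from -0.12 to 0.0634, Zbtb18 from -0.18 to 0.15, Zbtb44 from -0.0376 to 0.16 and Zbtb8os from -0.0402 to 0.0186. Of 252 refits of named genes, 183 kept direction and side of the threshold. With 3 libraries a group, members under 1 TPM other than Zbtb10 carry too few counts for a firm statement. Zbtb10, also under 1 TPM, had 1.85 to 4.94 CPM, and its call passed in only 6 of 14 alternative fits.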
